A study of Homo sapiens with 18 samples.

Results

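The genes of the caspase, APAF1 and inhibitor-of-apoptosis (IAP) module were followed across 6 combinations of oxygen and drug in MDA-MB-231 cells, a mesenchymal-like line from a human breast carcinoma. Of 8 genes named for the module, XIAP, BIRC2, DIABLO, HTRA2, APAF1, CASP6 and CASP9 had probe sets listed under their symbol alone in the platform's gene table. The transcripts of BIRC3 were not analysed here, and it entered only the promoter search below. The other 7 genes had 19 of the 54613 probe sets on the array without controls: 7 for XIAP, 3 each for APAF1 and CASP9, 2 each for CASP6 and HTRA2, and 1 each for BIRC2 and DIABLO. Cells were kept for 16 hours in medium without serum, at 1% oxygen (hypoxia, H) or in normoxia (N). They received 10 µM epirubicin (H epi and N epi), 50 µM paclitaxel (H tax and N tax) or no drug (H and N). Transcripts were measured on Affymetrix arrays (HG-U133 Plus 2.0), and 12 arrays were compared, 2 for each condition. The other 6 arrays carried a title and a source name that gave different drugs, so they were assigned to no condition. Added to the fit by their titles, they left all 27 calls on the module's probe sets in place, and added by their source names they left 0. All cells came from this 1 line, and the study's methods call the samples of a condition biological replicates. A table legend of the paper says that its ratios came from 3 independent experiments. The labels do not say how the cultures were separated, or whether arrays of the same number came from 1 experiment. The p-values measure the spread between these arrays.

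Mitochondrial apoptosis starts when cytochrome c leaves the mitochondria and binds APAF1, which assembles into the apoptosome and activates the initiator caspase-9. Caspase-9 cleaves the executioner caspases, of which caspase-6 is an atypical member that cleaves nuclear lamins. XIAP binds and inhibits caspases directly, BIRC2 (cIAP1) is a ubiquitin ligase of TNF receptor signalling, and DIABLO (SMAC) and HTRA2 (OMI) are mitochondrial proteins that relieve the block by IAPs once they reach the cytosol. Epirubicin is an anthracycline that damages DNA and inhibits topoisomerase II, and paclitaxel stabilizes microtubules. Much of this control acts on proteins, while the arrays measured transcripts only.

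Values were GC-RMA signals on the log2 scale, so that a difference of 1 is a 2-fold difference. A probe set entered the test if any condition had both of its arrays above 3.14, which was the case for 24151 probe sets and for 16 of the 19 of the module. The other 3 (211553_x_at and 211554_s_at of APAF1 and 240437_at of CASP9) stayed between 2.24 and 2.46 on all arrays. A single limma model of the 12 arrays gave the tests, with Benjamini-Hochberg adjustment over all 24151 probe sets, and a change was called at an adjusted p under 0.05. Between 41.4% and 42.6% of probe sets were above the threshold on each array, and arrays of 1 condition correlated at 0.9893 (N epi) to 0.9986 (N). The line's markers VIM, CD44 and AXL were present on 12 of 12 arrays. Of the markers expected to be low or absent in this line, PGR and CDH1 were present on 0 and ESR1 on 1. EPCAM, expected low or absent too, was present on 12 (6.01 to 8.02). Of the markers of other cell types, PTPRC (leukocyte) and ALB (hepatocyte) were present on 0, but PECAM1 (endothelium) on 12 (3.78 to 7.07). P4HA1, a collagen prolyl hydroxylase gene induced by hypoxia, exceeded its N signal in H by 3.50 log2 units (adjusted p = 6.07e-06). It exceeded its N tax signal in H tax by 2.52 (adjusted p = 0.000136), and differed by -0.17 between H epi and N epi (adjusted p = 0.556). ADM, checked with it, rose by 3.97 in H against N (adjusted p = 0.00832). It was not called in H tax against N tax (1.98, adjusted p = 0.233) or in H epi against N epi (-2.34, adjusted p = 0.119). VEGFA, also checked, was called in none of these comparisons. It differed by 0.54 in H against N, 0.39 in H tax against N tax and -2.17 in H epi against N epi.

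The question was whether the drugs, and hypoxia with or without them, altered the transcripts of this module. Each gene is represented first by its main probe set, the one with the highest mean over the 12 arrays. Across the 12 arrays the main probe set of APAF1 spanned 2.99 log2 units, that of XIAP 2.11, that of BIRC2 1.86, that of CASP6 1.56, that of HTRA2 1.40, that of CASP9 1.33 and that of DIABLO 0.83. In the deposited values, the 4 epirubicin arrays gave the lowest values of APAF1, XIAP, BIRC2 and DIABLO, and the 4 paclitaxel arrays the lowest values of CASP6 and the highest values of XIAP, BIRC2 and CASP9.

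**Figure D1:**
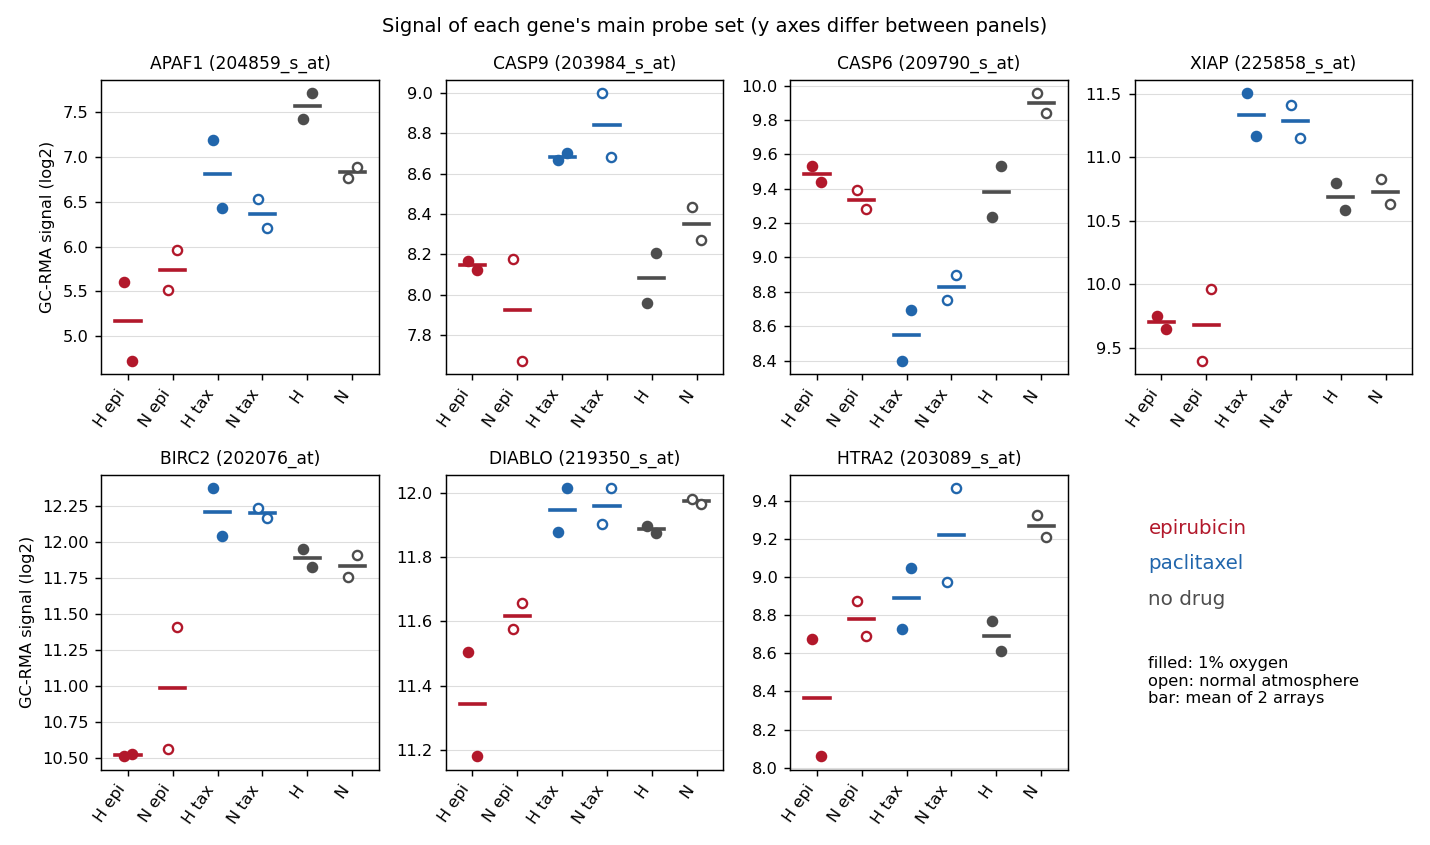
GC-RMA signal (log2, y axis) of the main probe set of each of 7 genes in 6 conditions (x axis). Points are arrays, filled at 1% oxygen and open in normoxia, and bars are means of 2 arrays. The epirubicin arrays (red) lie lowest for APAF1, XIAP, BIRC2 and DIABLO, and the paclitaxel arrays (blue) lie lowest for CASP6.

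In the values as deposited, epirubicin lowered 6 of the 7 genes in normoxia and 4 in hypoxia on at least 1 probe set. By main probe sets alone, 5 genes fell in normoxia and 4 in hypoxia. Median centring of the arrays left falls of 2 genes in normoxia and 3 in hypoxia, again on at least 1 probe set. In N epi against N, 10 of 16 probe sets fell and 0 rose, belonging to XIAP (5), APAF1, BIRC2, DIABLO, HTRA2 and CASP6. Over all probe sets tested, 27.8% fell and 24.7% rose in this comparison (52.6% changed). In H epi against H, 8 of 16 fell and 0 rose, belonging to XIAP (5), APAF1, BIRC2 and DIABLO, where 32.5% of all probe sets fell and 30.9% rose (63.5% changed). The median change of the 16 probe sets was -0.67 in N epi against N and -0.43 in H epi against H, against a median of 0 over all probe sets tested in each. Since 7 of the 16 belong to XIAP, the counts weigh that gene more than the others. The count in N epi against N was 5 without N replicate 1 and 6 without N epi replicate 1. In RNA from a whole culture, fewer cells that express a gene and less of its RNA per cell cannot be told apart.

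APAF1, the scaffold of the apoptosome, had the largest fall of the 16 probe sets in H epi against H, while XIAP 228363_at had it in N epi against N. The APAF1 probe set 204859_s_at gave 5.61 and 4.72 on the H epi arrays, 5.52 and 5.96 on the N epi arrays, 7.43 and 7.71 on the H arrays and 6.77 and 6.89 on the N arrays. The 4 epirubicin arrays were below the 4 arrays without drug, with no overlap. The difference was -2.40 log2 units in H epi against H, a 5.30-fold lower signal (standard error 0.34, adjusted p = 0.000364), and -1.09 in N epi against N, or 2.13-fold lower (standard error 0.34, adjusted p = 0.0252). The fall in normoxia lost its call without N replicate 1, N replicate 2 or N epi replicate 1 (adjusted p up to 0.132), while that in hypoxia kept it without any 1 array.

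XIAP, the inhibitor of caspases, fell on 5 of its 7 probe sets under either oxygen level. The main probe set, 225858_s_at, gave 9.75 and 9.65 on the H epi arrays and 9.39 and 9.96 on the N epi arrays, against 10.79 and 10.58 on the H arrays and 10.83 and 10.63 on the N arrays. It was 1.98-fold lower in H epi than in H (adjusted p = 0.00326) and 2.07-fold lower in N epi than in N (adjusted p = 0.00365). The largest falls were those of 228363_at, at -1.71 in H epi against H (3.27-fold, standard error 0.25, adjusted p = 0.000496) and -1.45 in N epi against N (2.74-fold, adjusted p = 0.00198). The other probe sets that fell were 225859_at, 235222_x_at and 243026_x_at, by 0.59 to 0.97. Of these 3, 235222_x_at lost its calls without H epi replicate 1 or N epi replicate 1, and the calls of 225859_at and 243026_x_at in H epi against H were each lost without H replicate 1 and without 1 H epi array. Probe sets 206536_s_at and 206537_at differed by 0.01 to 0.32 and were not called.

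BIRC2, the ubiquitin ligase cIAP1, was at 10.51 and 10.53 on the H epi arrays and at 10.56 and 11.41 on the N epi arrays, against 11.95 and 11.83 on the H arrays and 11.76 and 11.91 on the N arrays. N epi replicate 2 lay between the other epirubicin arrays and the arrays without drug. The fall was 2.58-fold in H epi against H (-1.37 on the log2 scale, standard error 0.24, adjusted p = 0.00134). In N epi against N it was 1.80-fold (-0.85, adjusted p = 0.0192). The call in normoxia was lost without N replicate 1, N replicate 2 or N epi replicate 1 (adjusted p up to 0.0957).

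Of the mitochondrial antagonists of IAPs, DIABLO gave 11.50 and 11.18 on the H epi arrays and 11.58 and 11.66 on the N epi arrays, against 11.90 and 11.87 on the H arrays and 11.98 and 11.96 on the N arrays. It fell 1.46-fold in H epi against H (adjusted p = 0.00548) and 1.28-fold in N epi against N (adjusted p = 0.0437), the second call being lost in 8 of 12 fits that left out 1 array. HTRA2 fell on 1 of 2 probe sets in normoxia: 211152_s_at gave 7.98 and 8.07 on the N epi arrays and 8.96 and 8.78 on the N arrays (1.80-fold lower, adjusted p = 0.0148), a call lost without N replicate 1 or N epi replicate 1. Its main probe set 203089_s_at differed by -0.49 in N epi against N (adjusted p = 0.115), and neither was called in H epi against H (-0.32 and -0.19).

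CASP6, the lamin-cleaving caspase, gave 9.39 and 9.28 on the N epi arrays, against 9.96 and 9.84 on the N arrays (probe set 209790_s_at). That is a fall of 0.56 log2 units (adjusted p = 0.0126), lost without N replicate 1 or N epi replicate 2. In H epi against H it differed by 0.10 (95% interval -0.23 to 0.44, per probe set and not adjusted, as all intervals here). CASP9, the initiator caspase, was not called with epirubicin: its main probe set 203984_s_at differed by 0.06 in H epi against H (95% interval -0.36 to 0.49) and by -0.43 in N epi against N (95% interval -0.85 to 0.00084, adjusted p = 0.0861).

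**Figure D2:**
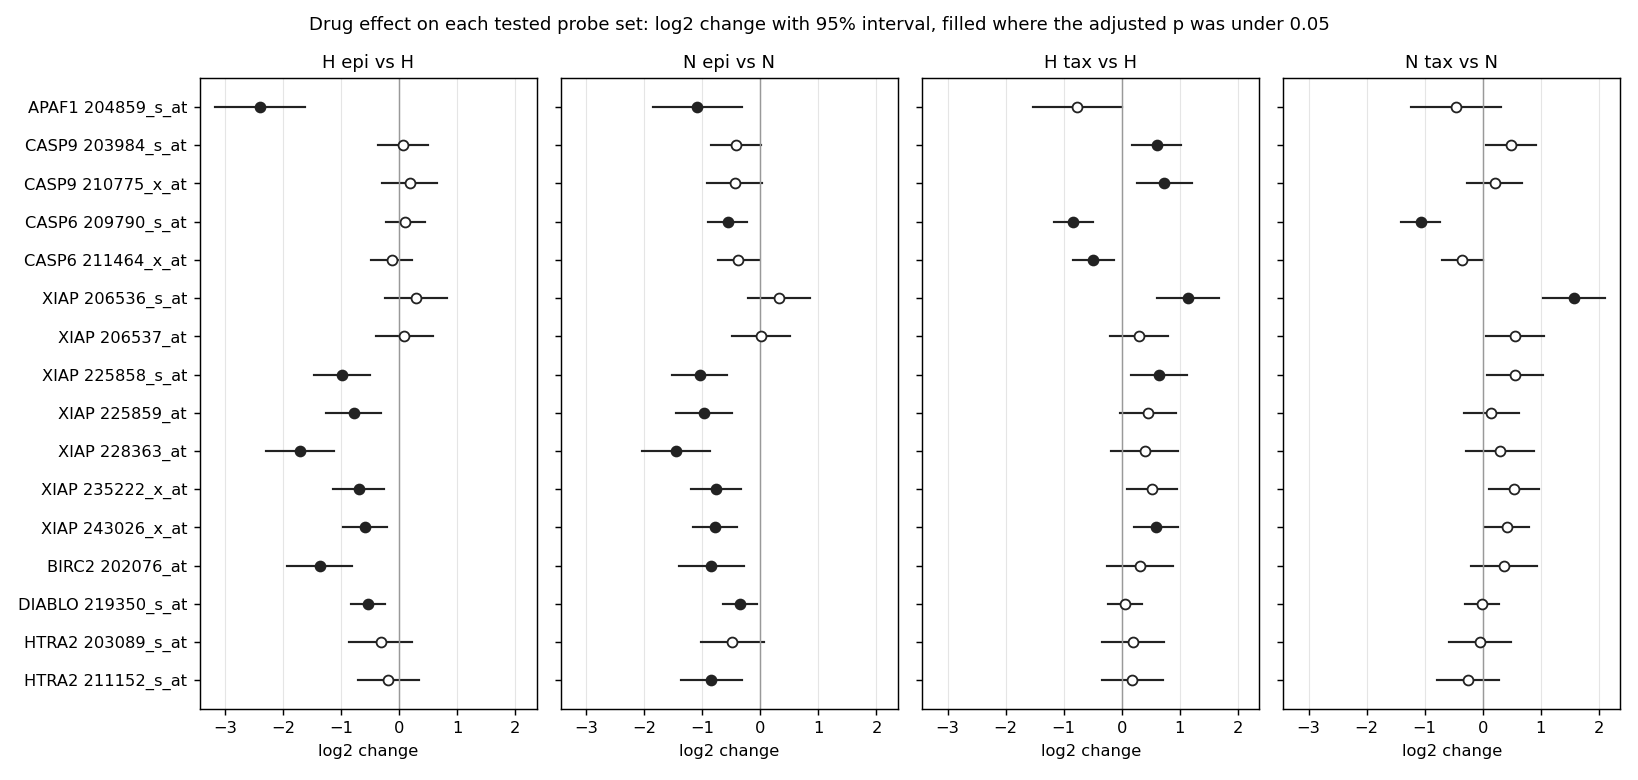
Log2 change with each drug (x axis) for the 16 tested probe sets (rows), with 95% intervals, in H epi against H, N epi against N, H tax against H and N tax against N. Filled points had an adjusted p under 0.05: with epirubicin 8 and 10 probe sets, all to the left of 0, and with paclitaxel 7 and 2, on both sides.

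The falls with epirubicin depended on how the arrays were scaled. The median signal of the tested probe sets was lower on the epirubicin arrays, by 0.54 in H epi against H and by 0.41 in N epi against N, and by 0.04 with paclitaxel. Centring each array on that median therefore added 0.54 and 0.41 to every change. The median change over all probe sets tested, 0 as deposited in both comparisons, moved up by as much. Rises and lost falls after centring were thus not read as particular to the module. The shares of all probe sets that fell or rose under the alternative scalings are not given here. Then 3 of the 16 probe sets fell (APAF1 at -1.87, XIAP 228363_at at -1.17 and BIRC2 at -0.83) and 5 rose in H epi against H: both of CASP9, CASP6 209790_s_at and XIAP 206536_s_at and 206537_at. In N epi against N, 4 fell (APAF1 and XIAP 225858_s_at, 225859_at and 228363_at) and 1 rose (XIAP 206536_s_at). Quantile normalization gave 7 falls and 3 rises in H epi against H, and 8 falls and 1 rise in N epi against N. The falls of XIAP 228363_at were called under all 3 scalings at either oxygen level, as were those of APAF1 and BIRC2 in H epi against H. DIABLO differed after centring by -0.01 in H epi against H and by 0.05 in N epi against N. The ACTB control probe sets also moved with epirubicin: the 3' minus 5' difference was -0.31 to -0.21 on the 4 epirubicin arrays, 0.11 to 0.32 on the paclitaxel arrays and -0.04 to 0.20 on the arrays without drug. The part of these array differences in the falls was not tested.

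**Figure D3:**
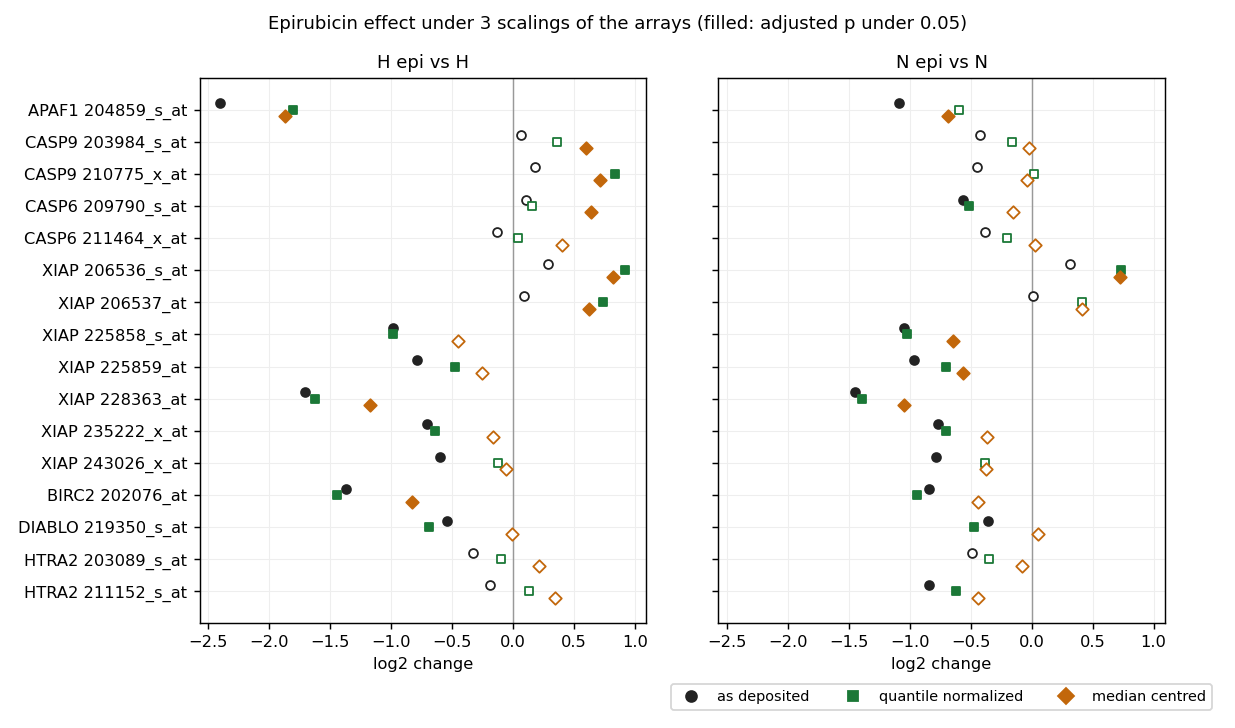
Log2 change (x axis) of the 16 tested probe sets (rows) in H epi against H and in N epi against N for values as deposited (circles), quantile normalized (squares) and median centred (diamonds). Filled points had an adjusted p under 0.05. Median centring moved all points to the right by 0.54 and 0.41, and left 3 and 4 falls called.

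Paclitaxel changed these probe sets in both directions. In H tax against H, 5 of 16 rose and 2 fell, where 13% of all probe sets rose and 17% fell (30% changed). That count was 2 without H replicate 1 or 2, 3 without H tax replicate 1, and 4 without N replicate 1 or 2, H tax replicate 2 or H epi replicate 1 or 2. In N tax against N, 1 rose and 1 fell, where 9.49% rose and 13.8% fell (23.3% changed). This second count was 5 without N epi replicate 1 or 2. The median of the 16 was 0.36 in H tax against H and 0.25 in N tax against N. Over all probe sets tested the medians were 0 in H tax against H and -0.01 in N tax against N.

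CASP6 was the member that paclitaxel lowered. Probe set 209790_s_at gave 8.40 and 8.70 on the H tax arrays and 8.75 and 8.90 on the N tax arrays, against 9.23 and 9.53 on the H arrays and 9.96 and 9.84 on the N arrays. All 4 paclitaxel arrays were below all 8 other arrays. It fell 1.78-fold in H tax against H (standard error 0.15, adjusted p = 0.00375) and 2.10-fold in N tax against N (standard error 0.15, adjusted p = 0.00179), and kept both calls without any 1 array. The second CASP6 probe set, 211464_x_at, fell by 0.49 in H tax against H (adjusted p = 0.0432, lost in 9 of 12 fits without 1 array) and differed by -0.35 in N tax against N (adjusted p = 0.144).

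XIAP rose with paclitaxel on 3 of 7 probe sets in hypoxia and on 1 in normoxia, most on a probe set that did not follow the others. Probe set 206536_s_at gave 6.0 and 5.32 on the H tax arrays and 6.24 and 6.54 on the N tax arrays, against 4.54 and 4.50 on the H arrays and 4.73 and 4.89 on the N arrays. It rose 2.21-fold in H tax against H (standard error 0.23, adjusted p = 0.00726) and 2.98-fold in N tax against N (standard error 0.23, adjusted p = 0.00247). The main probe set 225858_s_at gave 11.50 and 11.17 on the H tax arrays and 11.41 and 11.15 on the N tax arrays, above the 8 other arrays. Its rise was called in H tax against H (0.65, adjusted p = 0.0476, lost in 10 of 12 fits without 1 array), and its difference in N tax against N was 0.55 (adjusted p = 0.0929). Probe set 243026_x_at rose by 0.59 in H tax against H (adjusted p = 0.029, lost in 3 of 12 such fits) and differed by 0.41 in N tax against N (adjusted p = 0.111). The other 4 probe sets differed by 0.15 to 0.55 in the 2 comparisons, all positive and not called.

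CASP9 gave 8.67 and 8.70 on the H tax arrays and 9.0 and 8.68 on the N tax arrays, against 7.96 and 8.21 on the H arrays and 8.43 and 8.27 on the N arrays (203984_s_at). The rise in H tax against H was 1.52-fold (adjusted p = 0.0408) on this probe set and 1.67-fold (adjusted p = 0.0283) on 210775_x_at. These calls were lost in 8 and 4 of 12 fits without 1 array, among them each fit without an H or H tax array. In N tax against N the differences were 0.49 (adjusted p = 0.0951) and 0.21 (adjusted p = 0.545). APAF1 differed by -0.76 in H tax against H (adjusted p = 0.13) and by -0.46 in N tax against N (adjusted p = 0.381). BIRC2 differed by 0.32 in H tax against H and by 0.37 in N tax against N, DIABLO by 0.06 in H tax against H and by -0.01 in N tax against N, and HTRA2 by -0.25 to 0.20 over its 2 probe sets, with no call.

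The 7 XIAP probe sets fell into a set of 5 and a pair. Over the 12 arrays, 225858_s_at, 228363_at, 235222_x_at, 225859_at and 243026_x_at correlated with one another at 0.93 to 0.99 (Pearson's r, a description over arrays that share their conditions). The pair 206536_s_at and 206537_at correlated at 0.79 with each other and at 0.29 to 0.60 with the 5. Probe set 206537_at had the identical value of 4.78 on 6 arrays, among them the 4 with epirubicin, so that its change with epirubicin after centring was close to that of the array median alone. Where on the XIAP transcripts each probe set lies was not analysed here.

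**Figure D4:**
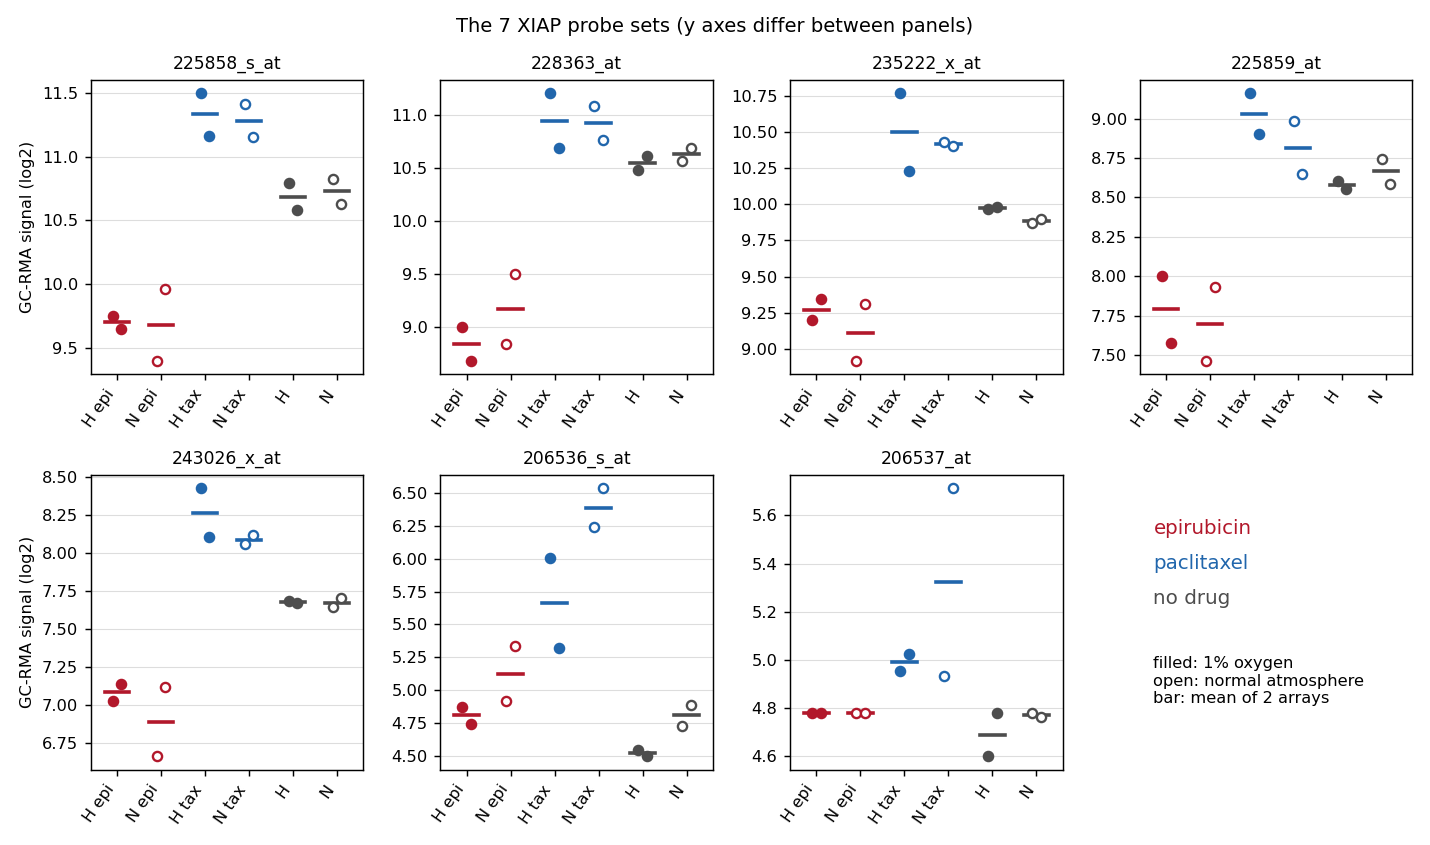
GC-RMA signal (log2, y axis) of the 7 XIAP probe sets in 6 conditions (x axis), points being arrays (filled at 1% oxygen) and bars means of 2 arrays. In 5 probe sets the means run in the order paclitaxel, no drug, epirubicin from high to low. In 206536_s_at the epirubicin arrays (4.74 to 5.34) lie near the arrays without drug (4.50 to 4.89), and 206537_at sits at 4.78 on all 4 epirubicin arrays.

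Hypoxia alone, or with a drug, called no probe set of the module. In H epi against N epi, 0 of 16 passed the test and 0 had an unadjusted p under 0.05 (1.52% of all probe sets called). In H tax against N tax, 0 passed and 1 had an unadjusted p under 0.05 (1.33% called). In H against N, 0 passed and 3 had an unadjusted p under 0.05 (9.51% called). The 3 in H against N were CASP6 209790_s_at and both probe sets of HTRA2. CASP6 gave 9.23 and 9.53 on the H arrays and 9.96 and 9.84 on the N arrays (-0.52, 95% interval -0.86 to -0.18, adjusted p = 0.0659). HTRA2 211152_s_at gave 7.98 and 8.25 on the H arrays and 8.96 and 8.78 on the N arrays (-0.76, 95% interval -1.28 to -0.23, adjusted p = 0.0807), and 203089_s_at differed by -0.58 (adjusted p = 0.182). The arrays of H and N did not overlap for these 3 probe sets. They also did not overlap for others with small differences, such as DIABLO (-0.09) and XIAP 235222_x_at (0.09), so this does not set the 3 apart.

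APAF1 gave 7.43 and 7.71 on the H arrays and 6.77 and 6.89 on the N arrays, a difference of 0.74 (95% interval -0.03 to 1.51, adjusted p = 0.231). With paclitaxel it differed by 0.44 between H tax and N tax, and with epirubicin by -0.58 between H epi and N epi, with overlap of the arrays in each. XIAP 206536_s_at had the unadjusted p under 0.05 in H tax against N tax (-0.72, 95% interval -1.26 to -0.19, adjusted p = 0.233). Its other 6 probe sets differed by -0.33 to 0.22 in that comparison. BIRC2 differed by -0.47 between H epi and N epi (95% interval -1.03 to 0.09), by 0.01 between H tax and N tax and by 0.06 between H and N. Without N epi replicate 1, BIRC2 was called lower in H epi than in N epi (-0.89, adjusted p = 0.0107). When the 6 arrays without a condition were added by their titles, 4 probe sets were called in H against N (CASP6 209790_s_at and both of HTRA2 lower, APAF1 higher by 0.73) and 1 in H tax against N tax (XIAP 206536_s_at, -0.84). That fit called 4974 of all probe sets in H against N and 1443 in H tax against N tax.

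**Figure D5:**
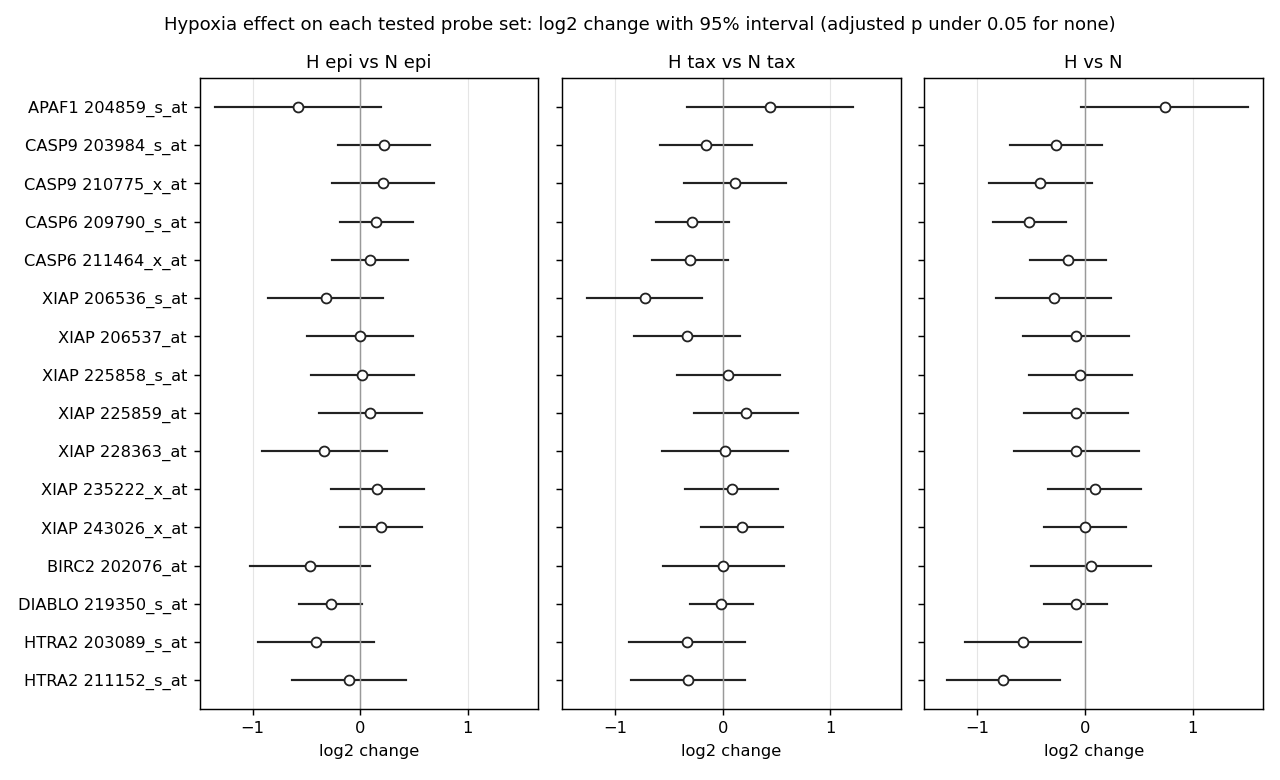
Log2 change with hypoxia (x axis) for the 16 tested probe sets (rows), with 95% intervals, in H epi against N epi, H tax against N tax and H against N. No point had an adjusted p under 0.05, and the intervals reach from -1.35 (APAF1, H epi against N epi) to 1.51 (APAF1, H against N).

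The hypoxia effects were also compared with each other. Between epirubicin-treated and untreated cells 0 of 16 probe sets differed (3.96% of all called, 2 of the 16 at an unadjusted p under 0.05), between paclitaxel-treated and untreated cells 0 (0.12% called, 0 unadjusted), and between paclitaxel-treated and epirubicin-treated cells 0 (0.82% called, 0 unadjusted). The 2 were APAF1, whose hypoxia effect was 1.32 lower with epirubicin than without drug (95% interval -2.41 to -0.22, adjusted p = 0.166), and CASP6 209790_s_at, with a difference of 0.67 (95% interval 0.19 to 1.14, adjusted p = 0.121). Since the H and N arrays enter several of these comparisons, the comparisons share samples.

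Because hypoxia acts on many genes through HIF-1, a factor that binds the core motifs ACGTG and GCGTG, the promoters were searched for these letters on both strands. RefSeq starts (GRCh38.p14) of all 8 genes gave 16 windows of the 250 bases before a start. Windows of 1 gene can overlap. Either core was present in 9 of the 16 windows and in 43.2% of all 35114 promoters. ACGTG was in 2 windows (18.5% of all promoters) and GCGTG in 8 (32.2%). The GC box GGGCGG, which binds SP1, was in 12 windows (42.6%), CCAAT in 4 (32%) and the TATA box TATAAA in 0 (10.7%). The windows held a median of 69.6% G and C, against 58% for all promoters. The windows of the 3 genes with the largest differences in H against N, and of XIAP, are printed with the hypoxia cores in capitals, using the most upstream start of each gene. They lie at chr12:98645040-98645289 on the plus strand (APAF1), chr4:109703446-109703695 on the minus strand (CASP6), chr2:74529155-74529404 on the plus strand (HTRA2) and chrX:123859458-123859707 on the plus strand (XIAP).
APAF1: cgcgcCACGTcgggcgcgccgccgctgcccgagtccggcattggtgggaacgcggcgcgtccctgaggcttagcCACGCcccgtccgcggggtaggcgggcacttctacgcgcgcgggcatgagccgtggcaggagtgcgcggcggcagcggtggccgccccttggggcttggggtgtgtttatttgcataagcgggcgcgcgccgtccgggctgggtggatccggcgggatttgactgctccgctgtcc
CASP6: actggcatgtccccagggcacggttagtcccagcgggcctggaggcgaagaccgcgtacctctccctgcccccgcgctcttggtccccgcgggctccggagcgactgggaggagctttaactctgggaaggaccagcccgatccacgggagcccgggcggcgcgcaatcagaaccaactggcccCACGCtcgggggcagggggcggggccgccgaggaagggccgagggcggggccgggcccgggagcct
HTRA2: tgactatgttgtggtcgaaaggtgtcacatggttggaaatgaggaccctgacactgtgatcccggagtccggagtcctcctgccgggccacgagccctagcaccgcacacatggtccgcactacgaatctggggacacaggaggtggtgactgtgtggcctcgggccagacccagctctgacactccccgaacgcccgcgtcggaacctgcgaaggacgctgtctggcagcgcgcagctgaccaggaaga
XIAP: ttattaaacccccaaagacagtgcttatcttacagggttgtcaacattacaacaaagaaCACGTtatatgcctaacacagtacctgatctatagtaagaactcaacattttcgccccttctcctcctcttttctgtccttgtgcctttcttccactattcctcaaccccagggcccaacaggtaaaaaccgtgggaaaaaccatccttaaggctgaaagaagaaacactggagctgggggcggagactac
Capitals read CACGT or CACGC where a core lies on the opposite strand. APAF1 has 1 core of each kind there, CASP6 has 1 GCGTG core and XIAP 1 ACGTG core there, and this HTRA2 window has 0. Of the windows not printed, the other HTRA2 window has 2 GCGTG cores, and the 2 other XIAP windows have 2 GCGTG cores and 0 cores. A match describes the letters and is no evidence of binding.

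Other genes of the pathway were read from 5 lists with 32 genes, of which 27 were listed in the gene table and 24 were tested. Each was read by its main probe set alone, and any other probe sets of these genes were not examined. The shares below therefore set genes beside probe sets. In H epi against H, 7 rose and 5 fell, so that 50% of the 24 were called, against 63.5% of all probe sets. In N epi against N, 7 rose and 6 fell, or 54.2% against 52.6% of all. In H tax against H, 5 rose and 5 fell (41.7% against 30% of all), and in N tax against N, 2 rose and 5 fell (29.2% against 23.3% of all). With hypoxia, 0 of 24 were called in H epi against N epi and in H tax against N tax, where 1.52% and 1.33% of all probe sets were called, and 4 fell in H against N (16.7% against 9.51% of all). Nothing particular to the lists was read from these shares. The medians of the 24 with epirubicin were 0.08 in H epi against H and -0.15 in N epi against N.

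Among the other caspases, 4 of 9 were tested. CASP8, the initiator caspase of death receptors, gave 5.99 and 5.79 on the H epi arrays and 6.40 and 6.76 on the N epi arrays, against 8.36 and 8.41 on the H arrays and 8.03 and 7.99 on the N arrays. It fell 5.63-fold in H epi against H (adjusted p = 7.81e-06) and 2.68-fold in N epi against N (adjusted p = 0.000171), and was not called with paclitaxel. CASP2, a caspase activated by the PIDDosome, fell with all 4 drug treatments (by 0.67 to 1.15). CASP4, an inflammatory caspase, rose with all 4: by 2.05 in H tax against H, 1.89 in N tax against N, 1.09 in H epi against H and 0.93 in N epi against N. The rises of CASP4 with epirubicin were lost in 2 and 7 of 12 fits without 1 array.

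Of the other IAP genes, 4 of 5 were tested. BIRC5 (survivin), an IAP that also works in chromosome segregation, gave 12.94 and 12.90 on the H epi arrays and 12.66 and 12.68 on the N epi arrays, against 11.45 and 11.35 on the H arrays and 11.95 and 11.90 on the N arrays. It rose by 1.52 in H epi against H (adjusted p = 1.35e-05) and by 0.75 in N epi against N (adjusted p = 0.000637), opposite in sign to XIAP and BIRC2. BIRC5 also rose in H tax against H (0.43, adjusted p = 0.0136) and fell in H against N (-0.52, adjusted p = 0.0174), calls that centring lost (adjusted p = 0.0523 and 0.118). The rise in H tax against H was also lost without H replicate 2 or H tax replicate 2. The fall in H against N was lost without any 1 of the H or N arrays. BIRC6, a large IAP with ubiquitin-conjugating activity, fell by 1.44 in H epi against H and by 1.23 in N epi against N. BIRC7 (livin), dim at 3.31 in H and in N, rose by 1.17 in H epi against H (adjusted p = 0.00401) and by 0.80 in N epi against N (adjusted p = 0.0299), the second call being lost without N replicate 1, N replicate 2 or N epi replicate 1.

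Among the apoptosome partners, AVEN, which binds APAF1 and inhibits caspase activation, gave 9.66 and 9.66 on the H epi arrays and 9.71 and 9.55 on the N epi arrays, against 8.13 and 8.10 on the H arrays and 8.31 and 8.31 on the N arrays. It rose by 1.54 in H epi against H (adjusted p = 1.12e-05) and by 1.32 in N epi against N (adjusted p = 5.59e-05). With paclitaxel it differed by -0.03 in H tax against H and by -0.04 in N tax against N. CYCS, which encodes cytochrome c, rose by 0.70 in H epi against H and by 0.40 in N epi against N, and fell by 0.37 in H against N (adjusted p = 0.0493), a call lost in 8 of 12 fits without 1 array. Quantile normalization lost its call in N epi against N (adjusted p = 0.0538). ENDOG, a mitochondrial nuclease gene, fell by 1.58 in H tax against H, by 1.13 in N tax against N (lost without N replicate 1 or N tax replicate 2) and by 0.98 in H epi against H (adjusted p = 0.0508 after centring). Of the IAP partners, XAF1, an antagonist of XIAP, rose with paclitaxel by 0.97 in H tax against H (adjusted p = 0.00188) and by 0.94 in N tax against N (adjusted p = 0.00307), and fell by 0.42 in N epi against N (adjusted p = 0.0393). That fall did not hold after centring (-0.02), where XAF1 was called higher in H epi than in H (0.69, adjusted p = 0.0103). TRAF1, an adapter that binds BIRC2, rose by 1.84 in H tax against H (adjusted p = 0.0449, lost in 9 of 12 fits without 1 array), and SEPTIN4, a septin gene with a product that binds XIAP, was called in none of the 4 drug comparisons (smallest adjusted p = 0.217).

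Of the caspase substrates, DFFA, the inhibitor of the apoptotic nuclease, rose by 1.19 in H epi against H (adjusted p = 8.47e-05) and by 0.55 in N epi against N, and fell by 0.55 in H against N (adjusted p = 0.0308, lost in 6 of 12 fits without 1 array). DFFB, the nuclease itself, was under the threshold on both N epi arrays and at least 2.0-fold lower there than in N (adjusted p = 0.000352). In H it was under the threshold on both arrays too, at least 2.0-fold lower than in N (adjusted p = 0.00636, lost without N replicate 1). The H tax signal exceeded it by 1.49-fold or more (adjusted p = 0.00975, lost without H replicate 2 or H tax replicate 1). These bounds set the N or H tax mean against the threshold. PARP1, a DNA repair enzyme cleaved by caspases, fell by 1.46 in H tax against H (adjusted p = 0.000696) and by 1.15 in N tax against N (adjusted p = 0.0029), and rose by 0.80 in H epi against H (adjusted p = 0.00412) and by 0.62 in N epi against N (adjusted p = 0.0177, lost without N replicate 1, N replicate 2 or N epi replicate 1).

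The members were also set against each other and against all other named genes by Pearson's r over the 12 arrays, given as descriptions because the arrays share their conditions. XIAP and BIRC2 were the most alike (0.95), followed by BIRC2 and DIABLO (0.88). XIAP and CASP6 had the lowest r (-0.57), although both fell in N epi against N. Outside the module, the main probe set of XIAP was most like those of UNC50, FNBP4 and RAB5A (each 0.99), and that of BIRC2 like NRIP1, TIAM2 and ZNF585A (0.997, 0.996 and 0.996). DIABLO was most like TXLNG, USP21 and MAP2K4 (each 0.99), HTRA2 like METTL17 (0.96), SETD6 and THAP4 (each 0.95), and APAF1 like HOOK3 (0.99), IVNS1ABP and MYO9A (each 0.97). CASP6 was most like TIMP3, SLC25A13 (each 0.98) and MCMBP (0.96), and CASP9 like MED20 (0.94), MKLN1 and GLIDR (each 0.93).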

How the data were processed

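Total RNA, isolated with Trizol, was measured on arrays of the Affymetrix HG-U133 Plus 2.0 type. The deposited values were log2 signals that the authors computed from all arrays by GC-RMA (background correction by probe sequence, quantile normalization and summary per probe set; version not given in the sources used here). GC-RMA gives dim probe sets nearly the same floor value on many arrays. The methods name AffyProbeMiner chip definitions, while the probe set names were the standard ones. Of 54675 probe sets, 62 were controls. The platform's gene table gave 41097 a single symbol, 1801 several and 11777 none.

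Conditions were taken from the labels. Titles and source names of 6 of the 18 arrays gave different drugs, and these arrays were used only in alternatives. Differences were tested with limma (3.58.1, R 4.3.3) in 1 fit with 6 condition means (6 residual and 2.28 prior degrees of freedom), two-sided, with Benjamini-Hochberg adjustment over 24151 probe sets in each of 10 comparisons. A probe set was present above a log2 value of 3.14. Arrays have no read depth, and 2 arrays a condition limit the precision. The fit was run on simulated data with independent noise and changes added to N epi alone, which does not test the calls made here. Figures were drawn with matplotlib 3.10.9 in Python 3.11.15.

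Named were all probe sets of the members, the 3 genes with the lowest adjusted p in each pathway list with BIRC5 in any case, and the 3 genes most like each member. The members, lists and tests were chosen with earlier results of these data known. Promoter sequences were from RefSeq. Alternatives were the 6 arrays added under their titles, or else under their source names, omission of each array in turn, the replicate number as a block, no presence filter, quantile normalization, median centring, and a fit of the compared conditions only.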

Additional observations from a re-analysis of the deposited data

Results flagged for a closer look

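The effect of hypoxia differed between epirubicin-treated and untreated cells for 2 of 24 tested genes of the pathway lists (8.33%) by the test of that difference, and for 0 of the 16 probe sets of the module, where 3.96% of all probe sets were called. CASP8 (213373_s_at) was 1.07 log2 units lower in this difference (log2 difference -1.07, standard error 0.20, limma adjusted p = 0.0299): the H epi arrays gave 5.99 and 5.79 and the N epi arrays 6.40 and 6.76, whereas the H arrays gave 8.36 and 8.41 and the N arrays 8.03 and 7.99. The call was lost in 7 of 12 fits without 1 array, those without N replicate 1 or 2, H replicate 1 or 2, N tax replicate 1 or 2, or H epi replicate 2 (adjusted p up to 0.117). BIRC5 (202095_s_at) had a difference of 0.77 (standard error 0.14, limma adjusted p = 0.0287): the H epi arrays gave 12.94 and 12.90 and the N epi arrays 12.66 and 12.68, whereas the H arrays gave 11.45 and 11.35 and the N arrays 11.95 and 11.90. Its call was lost without N replicate 1 or 2 or H replicate 1 or 2 (adjusted p up to 0.106) and after median centring (adjusted p = 0.0534).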

How the results depend on the processing

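Of 27 calls on the module's probe sets in the 4 drug comparisons, 27 kept direction and threshold with the 6 further arrays added by title, 24 with the replicate block, 24 with quantile normalization, 18 without a presence filter, 18 in a fit of the compared conditions only and 14 with median centring. With the arrays added by source name, the counts were 0 in all 10 comparisons (0 also at an unadjusted p under 0.05), and XIAP 225858_s_at and 243026_x_at changed sign in H tax against H (-0.0480 and -0.0377). That fit called 1 of all probe sets in H against N and 0 in the other comparisons, so its counts are not particular to the module. By title, 4 were called in H against N, 1 in H tax against N tax, 7 in N tax against N and 2 in the epirubicin-by-hypoxia difference (APAF1 -1.12 and HTRA2 211152_s_at 0.79). Over all probe sets, 4974, 1443, 9349 and 2962 were called in these 4 comparisons. No result about the module was read from these counts. Without the filter, 6 were called in N epi against N and 2 in H tax against H, with more probe sets adjusted over. The fit of the compared conditions only gave 4 in N tax against N and 2 in H tax against H, with fewer arrays. It called 6560 and 5513 of all probe sets there. Median centring gave 5 in N epi against N and turned DIABLO there to 0.0486. Leaving out 1 array gave 0 to 0 in H against N, 0 to 0 in H tax against N tax, 0 to 1 in H epi against N epi, 2 to 5 in N tax against N, 5 to 11 in N epi against N, 2 to 8 in H tax against H, 6 to 8 in H epi against H, and 0 to 0, 0 to 1 and 0 to 1 in the differences between hypoxia effects (paclitaxel against no drug, epirubicin against no drug, paclitaxel against epirubicin). The gained call was BIRC2 without N epi replicate 1, with a log2 difference of -0.95 (limma adjusted p = 0.0258) between epirubicin and no drug and of 0.90 (limma adjusted p = 0.0395) between paclitaxel and epirubicin. Deviations of same-numbered arrays correlated at -0.18 to 0.30 over 15 pairs of conditions (median 0.03, 3 above 0.1). Some pairs thus shared a part of their deviation, and the numbers were not taken to pair the arrays in the main fit. With the replicate block, 9 were called in N epi against N, 5 in H tax against H, 8 in H epi against H and 2 in N tax against N. The cause of these changes was not tested. The 2 arrays a condition and dim probe sets at a floor limit what could be seen.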

Other observations

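The 6 arrays without a condition are given as values, by title and then source name, for the main probe sets. The array titled H epi with source name H tax gave 9.88 for XIAP, 10.49 for BIRC2, 5.13 for APAF1 and 9.43 for CASP6. The array titled N epi with source name N tax gave 9.79 for XIAP, 10.52 for BIRC2, 5.17 for APAF1 and 9.75 for CASP6. The array titled H tax with source name H gave 11.32 for XIAP, 11.97 for BIRC2, 6.87 for APAF1 and 8.73 for CASP6. The array titled N tax with source name N gave 11.30 for XIAP, 12.39 for BIRC2, 6.55 for APAF1 and 9.11 for CASP6. The array titled H with source name H epi gave 10.64 for XIAP, 11.74 for BIRC2, 7.62 for APAF1 and 9.35 for CASP6. The array titled N with source name N epi gave 10.54 for XIAP, 11.81 for BIRC2, 6.92 for APAF1 and 9.82 for CASP6. Over these arrays DIABLO ran between 11.26 and 12.11, HTRA2 between 8.24 and 9.41 and CASP9 between 8.01 and 8.99. Across all probe sets without controls, tested or not, each correlated with the mean of the condition in its title at 0.9954 to 0.9989. With the mean of the condition in its source name, each correlated at 0.9386 to 0.9884.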
